A study of Rattus norvegicus with 6 samples.

Results

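The bone morphogenetic protein (BMP) pathway and its Id target genes were followed in the hippocampus of exercised rats through 10 genes, namely the ligands Bmp2, Bmp4, Bmp6 and Bmp7, the receptors Bmpr1a and Bmpr2, the antagonist Nog, and the targets Id1, Id2 and Id3. All probes whose gene name on the array equals one of these symbols were taken, after endings that mark predicted or mapped entries were removed. This gave 18 of 41012 probes and 10 of 35561 gene names, and every one of the 18 probes is described here. The rats were male Wistar rats, 11 weeks old at the start of the study, in 3 groups of the same strain and age. CONT rats rested on the treadmill, ME rats ran at 15 m/min and IE rats at 40 m/min, for 60 min/day, 5 times/week, over 6 weeks that included a habituation of 1 week (ME) or 4 weeks (IE). Slight electric shocks were used during habituation in both running groups, and some IE rats received a few more foot shocks later, so shocks and running speed cannot be told apart. IE rats that refused to run were excluded by the authors. Tissue was taken 24 or 36 h after the last session by the sample records and 2 days after it by the methods. RNA of 5 rats was pooled in each group, and each pair of pools (ME vs CONT, ME against IE, and IE vs CONT) was hybridized to 2 arrays with the dyes Cy3 and Cy5 exchanged.

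BMPs are secreted ligands of the TGF-beta superfamily. They bind a complex of type I receptors (such as Bmpr1a) and the type II receptor Bmpr2. Within this complex the type I receptor phosphorylates Smad transcription factors, and the Id genes are among the best known direct targets of these Smads. Id proteins lack a DNA-binding domain and hold back basic helix-loop-helix factors that drive neuronal differentiation. In the adult dentate gyrus, BMP signalling is known to keep neural stem cells quiescent, and noggin (Nog) binds the ligands outside the cell and relieves this brake.

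The probes are strands of 60 bases, and 5 of them are printed here. The probes of Bmp2 are shown because they gave different values, the probe of Bmp6 because its arrays of ME vs CONT came closest to one another, and a pair of Id3 probes because capitals mark the 43 bases that both share, so that they are not separate looks at the Id3 transcript. Both Bmp2 probes are matched by the files to the plus strand of chromosome 3 of the rn3 build, with starts 616 bases apart.
Bmp2 A_43_P11848 (chr3:121286084-121286143, plus strand): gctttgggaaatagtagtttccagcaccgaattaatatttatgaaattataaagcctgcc
Bmp2 A_44_P1013851 (chr3:121286700-121286759, plus strand): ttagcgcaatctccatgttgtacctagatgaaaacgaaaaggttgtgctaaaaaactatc
Bmp6 A_44_P250030 (chr17:32383044-32383103, minus strand): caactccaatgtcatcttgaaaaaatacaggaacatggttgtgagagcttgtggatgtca
Id3 A_44_P139744 (chr5:154944495-154944669, plus strand): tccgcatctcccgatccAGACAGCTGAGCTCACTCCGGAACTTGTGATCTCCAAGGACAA
Id3 A_44_P276352 (chr5:154944512-154944686, plus strand): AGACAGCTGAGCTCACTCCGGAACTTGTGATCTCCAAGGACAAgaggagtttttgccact
Each of these Id3 probes spans 175 bases of the genome with its 60 bases, so its match is interrupted. GC content was 35% and 36.7% for the Bmp2 probes, 40.0% for the Bmp6 probe, and 55.0% and 50.0% for the Id3 probes. Over the 143 pairs of probes of different genes among the 10, the longest run of bases shared on either strand was 9, so no probe of one gene shares a long stretch with that of another. All 10 symbols were found among the protein-coding genes of the RefSeq annotation of GRCr8, 7 of them also through the mRNA accession on the array.

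The methods describe 1 pool per group, while the sample records name a Pool 1 and a Pool 2 for the arrays of a dye swap. The methods were followed, so no test across rats was made. Every ± below is the SD between the 2 arrays of a dye swap, which is technical under the methods' account and would also hold the spread between pools under that of the records. Values are log2 ratios of the first-named over the second-named pool, and array 1 is the one with the first-named pool in Cy5. The CONT pool and 1 slide were common to the comparisons of ME and of IE with CONT, and IE vs ME was run on another slide. A reading is 1 channel of 1 array, and the software marks whether it is well above background. Once the ratios were turned to the same direction, the arrays of a pair correlated across probes, which are not independent, negatively: Pearson's r was -0.48 over 40922 probes in ME vs CONT, -0.55 over 40957 in IE vs CONT and -0.74 over 41009 in IE vs ME. Past 1.5-fold with the software's p below 0.01 on both arrays, 50, 12 and 30 probes moved in the same direction on both arrays, and 352, 366 and 1713 had the same dye brighter on both. A value from a single array is therefore given here only beside that of its swapped partner. The hippocampal neuron markers (12 probes of 9 genes, among them Prox1, Camk2a and Slc17a7) were well above background in every reading of the slide with CONT, with summed signals of 48932 to 52577 in CONT, 50856 to 51468 in ME and 49688 to 50218 in IE, and 0 of them were called in any comparison.

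No BMP or Id probe was called in any comparison. To be called, a probe needed a Cy5/Cy3 of 1.5 or more on one array of a pair, 0.75 or less on the other, and a software p below 0.01 on both. This held for 0 of 18 probes in ME vs CONT (0.122% of all probes), 0 of 18 in IE vs CONT (0.0293%) and 0 of 18 in IE vs ME (0.0732%), so calls this rare leave little to read from a count over 18 probes. With the fold range alone, 1 probe, Bmp2 A_43_P11848, passed in ME vs CONT (0.987% of all probes), and 0 passed in IE vs CONT (0.667%) and IE vs ME (1.06%).

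The ratios of most members were small. In ME vs CONT, the mean log2 ratios of the 18 probes ran from -0.04 to 0.78 with a median of 0.05, beside a median of 0.00 over all probes. In IE vs CONT they ran from -0.37 to 0.13 with a median of -0.03, and in IE vs ME from -0.75 to 0.04 with a median of -0.07, beside 0.00 over all probes in both. Of all probes well above background in every reading, 5% lay below -0.15 and 5% above 0.16 in ME vs CONT, and the limits were -0.15 and 0.14 in IE vs CONT and -0.15 and 0.18 in IE vs ME. The SD between arrays had a median of 0.10 over the members in ME vs CONT, 0.14 in IE vs CONT and 0.28 in IE vs ME. Over all probes the median SD was 0.16, 0.17 and 0.26.

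The arrays of a pair pointed the same way for 9 probes in ME vs CONT, 4 in IE vs CONT and 3 in IE vs ME. With ME, 9 of the 18 probes, from 7 genes (Bmp2, Bmp6, Bmp7, Bmpr1a, Bmpr2, Id2 and Id3), were higher than CONT on both arrays and 0 were lower on both, while 12.8% of all probes were higher and 14.2% lower on both. For 7 of the 9, the mean was larger than the SD between its arrays. Choosing probes whose arrays share a sign favours this outcome by itself, so it adds little to the count of 9. With IE, 0 probes were higher than CONT on both arrays (13.5% of all probes) and 4 were lower on both (13.0%), those of Bmp2, Bmpr1a, Bmpr2 and Id2. IE vs ME had 0 probes higher on both arrays (11% of all probes) and 3 lower on both (12.0%), those of Bmp2, Bmp6 and Id1. On the slide with CONT, both ME readings lay above all 4 CONT readings at 3 of the 18 probes (3.21% of all probes) and below them at 0 (3.76%), while both IE readings lay above them at 0 (3.28%) and below them at 1 (3.51%). Probes of 1 gene measure the same transcripts, so these counts are not over independent items.

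**Figure D1:**
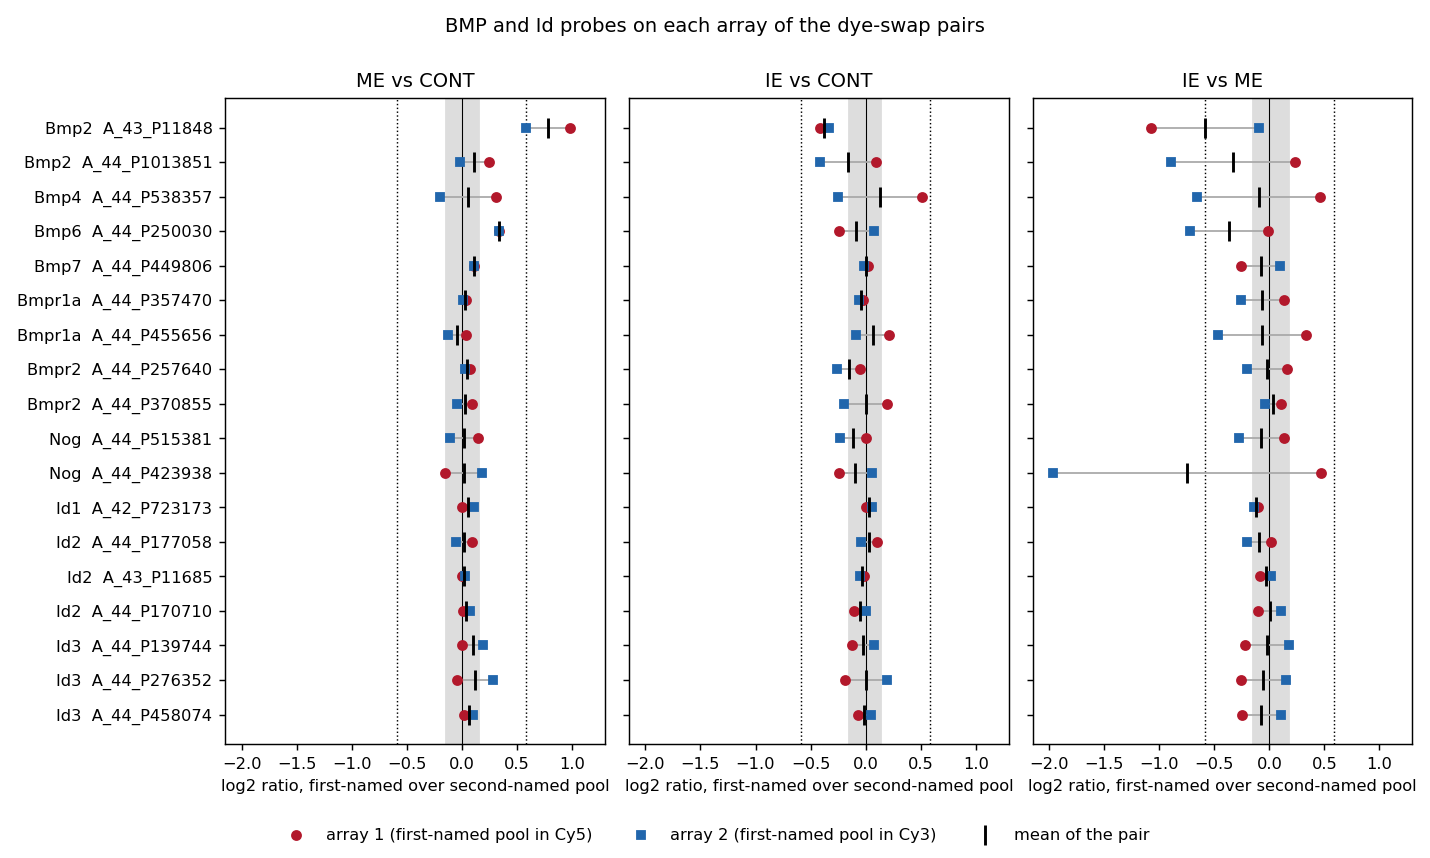
Log2 ratio (x axis) of each of the 18 BMP and Id probes (rows), with 1 panel per comparison. Circles and squares are the arrays of a dye swap, the black tick is their mean, the gray band holds the middle 90% of all probes well above background, and the dotted lines mark a 1.5-fold difference. Most means lie inside or near the band. The Bmp2 probe A_43_P11848 and the Bmp6 probe lie above it in ME vs CONT. Both Bmp2 probes and Bmpr2 A_44_P257640 lie below it in IE vs CONT. In IE vs ME, both Bmp2 probes, the Bmp6 probe and the Nog probe A_44_P423938 lie below it. This Nog probe has the widest gap between its arrays, in IE vs ME.

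Bmp6, a ligand known for its roles in iron balance and in bone, gave the same ratio on both arrays of ME vs CONT. At its only probe, A_44_P250030, log2 ME/CONT was 0.34 on array 1 and 0.34 on array 2, with a mean of 0.34 ± 0.0019, a fold of 1.26. The processed signal (background-subtracted and dye-normalized, in arbitrary units) was 154 and 161 in ME, 118 to 137 over the 4 CONT readings, and 116 and 124 in IE. Both ME readings thus lay above all CONT and all IE readings of the slide, as held for 3 of the 18 probes and 1.79% of all probes. The software's p was 0.11 on each array, so the probe missed the call on p and on fold.

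For IE vs CONT the Bmp6 arrays opposed one another. Log2 IE/CONT was -0.24 and 0.076, with a mean of -0.083 ± 0.22. Measured directly, IE/ME was -0.010 on array 1 and -0.72 on array 2, with a mean of -0.37 ± 0.50, and the software's p was 0.97 and 0.0063. One array thus showed nearly no difference and the other a lower level in IE. Through CONT, as IE vs CONT minus ME vs CONT, IE/ME was -0.42, close to the direct mean. When the software's processing was replaced by normexp and loess, the ME/CONT mean of Bmp6 was 0.15, and with loess and no background subtraction it was 0.20.

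Markers of meninges and fibroblasts (18 probes of 14 genes, among them Col1a1, Col1a2, Dcn, Ogn and Ptgds) were, like the Bmp6 means, highest in ME, with larger values. In IE vs ME, 17 of the 18 marker probes were lower on both arrays, while Bmp6 was -0.010 on array 1 and -0.72 on array 2. The median log2 ratio of the markers was 0.89 in ME vs CONT, where 12 of 18 were called higher. It was -0.01 in IE vs CONT with 0 called, and -0.91 in IE vs ME, where 11 of 18 were called lower. Their summed signal was 46028 to 48712 in ME against 22140 to 23337 in CONT and 21723 to 21887 in IE, and on the other slide 41944 to 49479 in ME against 19624 to 20090 in IE. Of the 14 genes, 13 had a probe well above background in all 8 readings of the slide with CONT, and Slc22a6 in 6 of 8. In bulk RNA, a difference in the number of cells of a type and a difference in RNA per cell cannot be told apart. Whether these markers have a part in the Bmp6 value was not tested.

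Bmp2, a ligand best known for bone formation, gave different values at its probes. At A_43_P11848, log2 ME/CONT was 0.98 on array 1 and 0.58 on array 2, with a mean of 0.78 ± 0.28, but the probe was dim. Its signals in ME were 18.4 and 28.1, its 4 CONT readings ran from 9.30 to 18.7, and the IE readings were 11.8 and 13.8. The ME readings overlapped those of CONT, and 2 of 2 ME readings, 2 of 4 CONT readings and 1 of 2 IE readings were well above background.

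At the same probe, log2 IE/CONT was -0.41 and -0.33, with a mean of -0.37 ± 0.054 and a software p of 0.44 and 0.53. The direct log2 IE/ME was -1.07 on array 1 and -0.093 on array 2, with a mean of -0.58 ± 0.69. Both IE readings of that slide were not well above background while both ME readings were. On arrays 1 and 2, ME signals were 23.5 and 15.7 and IE signals 11.2 and 14.7. With each IE signal raised to at least the lowest signal of any probe well above background, mean ME/IE was 1.26-fold. This is a mean over arrays that differed widely, and not a lower limit on the fold. Through CONT, log2 IE/ME was -1.16, with 1 of 2 IE readings well above background on the slide with CONT. The ME/CONT mean was 0.03 after normexp and loess and 0.11 after loess without background subtraction, and direct IE/ME was -0.03 and -0.04 under these settings.

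The second Bmp2 probe, A_44_P1013851, stood well above background on every array and had smaller ratios. Log2 ME/CONT was 0.24 and -0.017, with a mean of 0.11 ± 0.18, and log2 IE/CONT was 0.098 and -0.42, with a mean of -0.16 ± 0.36. Direct IE/ME was 0.24 on array 1 and -0.89 on array 2, with a mean of -0.33 ± 0.80, and the route through CONT gave -0.27. The software's p of direct IE/ME was 0.36 on array 1 and 0.0029 on array 2. The arrays disagreed in sign in all 3 comparisons, and each SD was larger than its mean. Only the dim probe of the pair had arrays of the same sign.

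Bmp7, a ligand expressed in the developing forebrain and its coverings, was measured well above background in every reading of A_44_P449806 (chromosome 3 of rn3, 163633415 to 163633474, minus strand). Log2 ME/CONT was 0.11 on both arrays, with a mean of 0.11 ± 0.0034. Its CONT readings of 174 to 214 nevertheless spanned the ME readings of 190 and 192. Log2 IE/CONT was 0.019 and -0.013, and direct IE/ME was -0.26 and 0.10, so neither comparison with IE showed a difference beyond its spread.

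Bmp4, which specifies dorsal fates in the neural tube, showed arrays of opposite sign in every comparison. At A_44_P538357 (chromosome 15 of rn3, 22299616 to 22299675, minus strand) log2 ME/CONT was 0.31 and -0.20, log2 IE/CONT was 0.51 and -0.25, and log2 IE/ME was 0.46 and -0.65. The means were 0.06 ± 0.36, 0.13 ± 0.54 and -0.095 ± 0.79. In all 3 comparisons the Cy5 channel was the brighter on both arrays of the pair. A difference of Bmp4 between pools was not detectable with this spread.

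**Figure D2:**
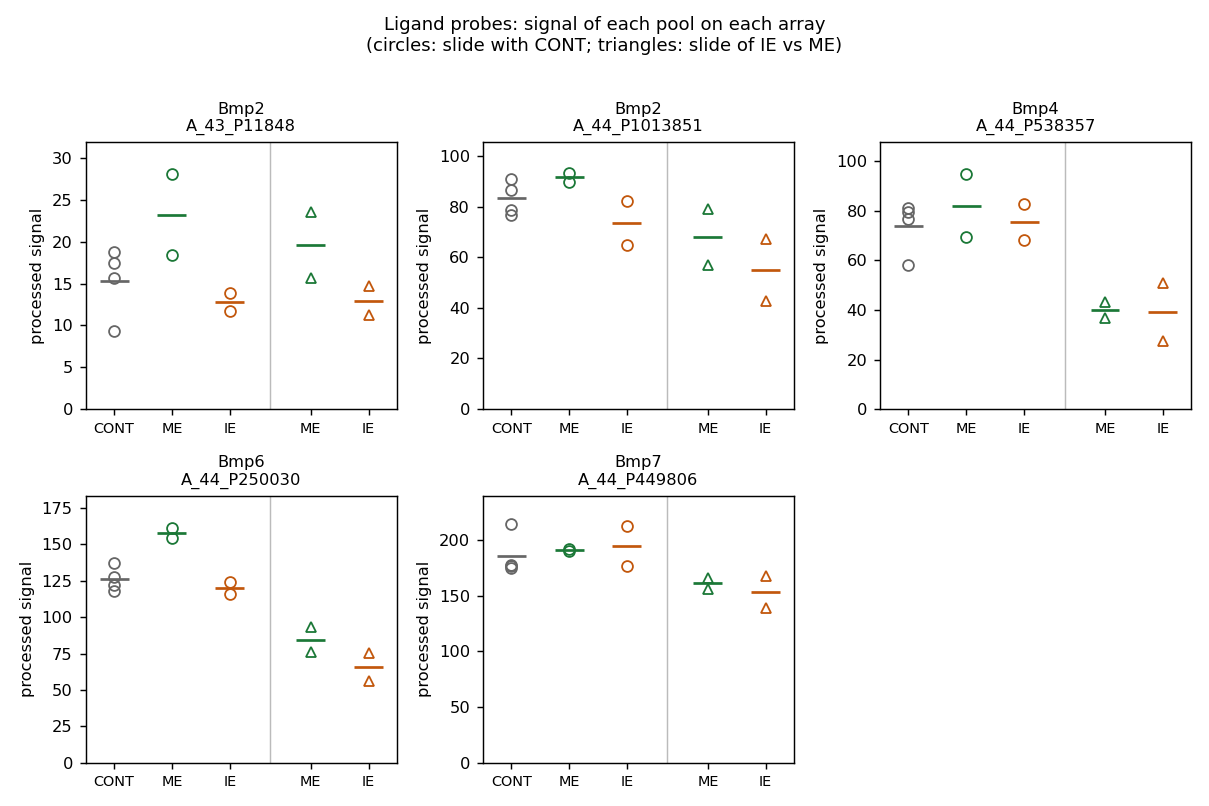
Processed signal (y axis, arbitrary units, from 0) of each ligand probe in the CONT, ME and IE pools. Circles are readings on the slide with CONT, triangles readings on the slide of IE vs ME, and lines are means. Both Bmp6 readings in ME, 154 and 161, lie above the CONT and IE readings of their slide, and the readings of the other ligand probes overlap between CONT and ME.

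The receptors stayed close to CONT. Bmpr1a, the type I receptor also called Alk3, has 2 probes, both on chromosome 16. A_44_P357470 gave log2 ME/CONT of 0.040 and 0.0093 and log2 IE/CONT of -0.021 and -0.056, and A_44_P455656 gave 0.035 and -0.12 and then 0.21 and -0.083. At the first probe the means of 0.02 ± 0.021 and -0.04 ± 0.025 were small, and its signals of 526 to 561 in CONT, 530 to 560 in ME and 528 to 553 in IE overlapped throughout.

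Bmpr2, the type II receptor for BMPs, had means between -0.15 and 0.05 over both of its probes and all comparisons. A_44_P257640 (chromosome 9 of rn3, 58526733 to 58526792) gave log2 ME/CONT of 0.069 and 0.026 and log2 IE/CONT of -0.051 and -0.26. Its IE readings of 86.3 and 94.0 lay below the 4 CONT readings of 96.4 to 103, as held for 1 of the 18 probes and 3.51% of all probes. Its second probe, A_44_P370855, did not share this, with log2 IE/CONT of 0.19 and -0.19. In IE vs ME the means were -0.02 ± 0.26 and 0.04 ± 0.10. After normexp and loess the ME/CONT mean of A_44_P257640 was -0.02 in place of 0.05.

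Nog, the secreted antagonist noggin, differed little from CONT at either probe. A_44_P515381 gave log2 ME/CONT of 0.14 and -0.11 and log2 IE/CONT of 0.0070 and -0.24. A_44_P423938 gave log2 ME/CONT of -0.15 and 0.18 and log2 IE/CONT of -0.25 and 0.055. The 4 means lay between -0.11 and 0.02, each with an SD larger than its size.

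In IE vs ME the Nog probes parted. A_44_P515381 gave 0.14 and -0.28, and A_44_P423938 gave 0.47 on array 1 and -1.96 on array 2, with a mean of -0.75 ± 1.72. The last value, with a software p of 6.4e-06, was the lowest ratio of all members on any array. The swapped array pointed the other way, with a software p of 0.13, and 1 of the 2 IE readings was not well above background. Signals of this probe were 44.3 and 13.8 in IE and 31.9 and 53.8 in ME on that slide, against 102 to 131 in all pools on the slide with CONT. After normexp and loess its mean was 0.01.

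The Id genes, the read-out of BMP activity among the members, were well above background in every reading of all 7 probes, and their mean ratios lay between -0.12 and 0.12 in all 3 comparisons. The median log2 ratio of the 7 probes was 0.06 in ME vs CONT, -0.01 in IE vs CONT and -0.06 in IE vs ME. None of the Id means came near the fold range.

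Id3, known in vessels and astrocytes, had the largest means of the Id genes in ME vs CONT. A_44_P139744 gave 0.0048 and 0.19 (mean 0.10 ± 0.13), the overlapping A_44_P276352 gave -0.047 and 0.28 (0.12 ± 0.23), and A_44_P458074, farther along the gene, gave 0.020 and 0.10 (0.06 ± 0.060). At A_44_P139744 the ME readings of 3868 and 3922 lay just above the CONT readings of 3431 to 3855 and the IE readings of 3449 and 3617. At A_44_P458074 the ME readings of 4708 and 4765 lay above 4431 to 4642 in CONT and 4424 and 4586 in IE. At A_44_P276352 the readings of ME and CONT overlapped.

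With IE, the Id3 means were -0.02 ± 0.14, 0.00 ± 0.27 and -0.01 ± 0.079 in the same order, with the arrays opposed at each probe. Direct IE/ME was -0.02 ± 0.28, -0.06 ± 0.29 and -0.07 ± 0.25, again with opposed arrays. The separation of the ME readings amounted to a fold of 1.07 at A_44_P139744 and 1.04 at A_44_P458074.

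Id2, a regulator of neural progenitors and of many other cell types, has 3 probes. In ME vs CONT, A_44_P177058 gave 0.090 and -0.052, A_43_P11685 gave 0.0025 and 0.032, and A_44_P170710 gave 0.014 and 0.069. In IE vs CONT the same probes gave 0.10 and -0.044, -0.018 and -0.049, and -0.11 and 0.0065. The means of Id2 ran from -0.09 to 0.04 over the probes and comparisons, and at its brightest probe, A_44_P177058, CONT readings of 12547 to 13525 overlapped 13045 and 13775 in ME and 12166 and 13826 in IE.

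Id1, a standard read-out gene of BMP activity, has 1 probe, A_42_P723173 (chromosome 3 of rn3, 142992779 to 142992838). Log2 ME/CONT was -0.0018 and 0.11 and log2 IE/CONT was -0.00095 and 0.060. Direct IE/ME was -0.10 and -0.14, with a mean of -0.12 ± 0.025 and a software p of 0.61 and 0.50. Through CONT the value was -0.03, so the slides gave the same sign with different sizes.

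**Figure D3:**
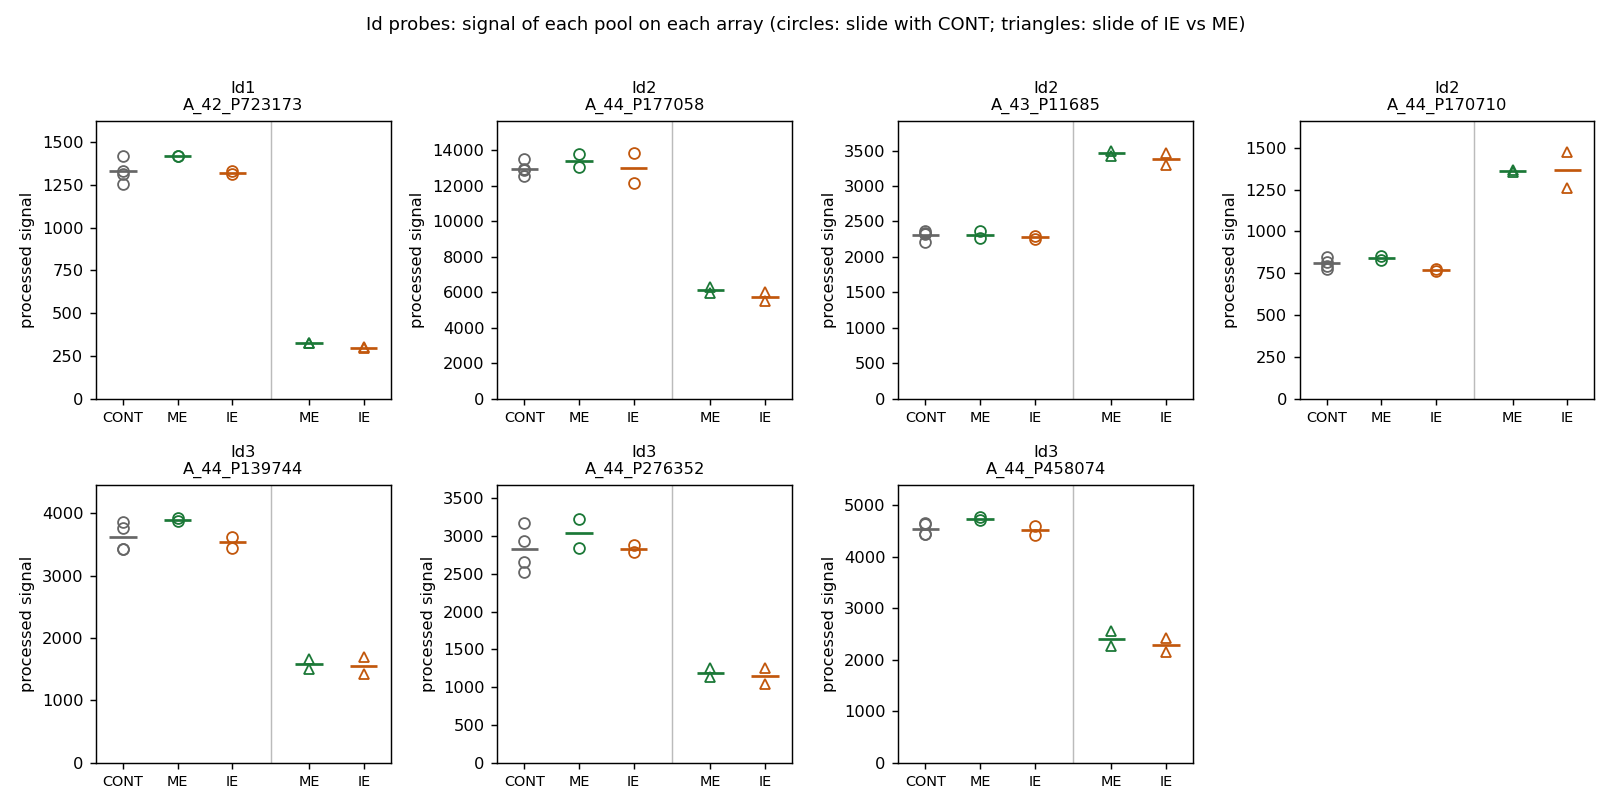
Processed signal (y axis, arbitrary units, from 0) of each Id probe in the CONT, ME and IE pools, with circles for the slide with CONT, triangles for the slide of IE vs ME, and lines for means. The pools of a slide lie close together at every probe, and signals differ between the slides, as at Id1 with 1258 to 1421 on one and 295 to 324 on the other.

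IE over ME was measured by both routes at all 18 probes. The direct mean and the value through CONT, which rest on the same pools, had the same sign at 13 of them (72.2%) and at 52.2% of all probes, and the size of their gap had a median of 0.08, beside 0.10 over all probes. For the 15 member probes well above background in every reading of all 6 arrays, the median gap was 0.06 and the largest 0.18, at a Bmpr2 probe, and the median over the 24716 probes of this kind was 0.06. The widest gaps, 0.57 at Bmp2 A_43_P11848 and -0.63 at Nog A_44_P423938, were at dim probes. Bmp6 (-0.37 direct, -0.42 through CONT) and Bmp2 A_44_P1013851 (-0.33 and -0.27) were the member probes well above background throughout for which both routes put IE below ME by more than 0.25, though the direct arrays of each spread by more than its mean. The direct mean of Bmp6 was -0.16 after normexp and loess and -0.13 after loess without background subtraction. That of Bmp2 A_44_P1013851 was 0.01 and 0.02 under these settings, so its lower level in IE did not hold there.

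**Figure D4:**
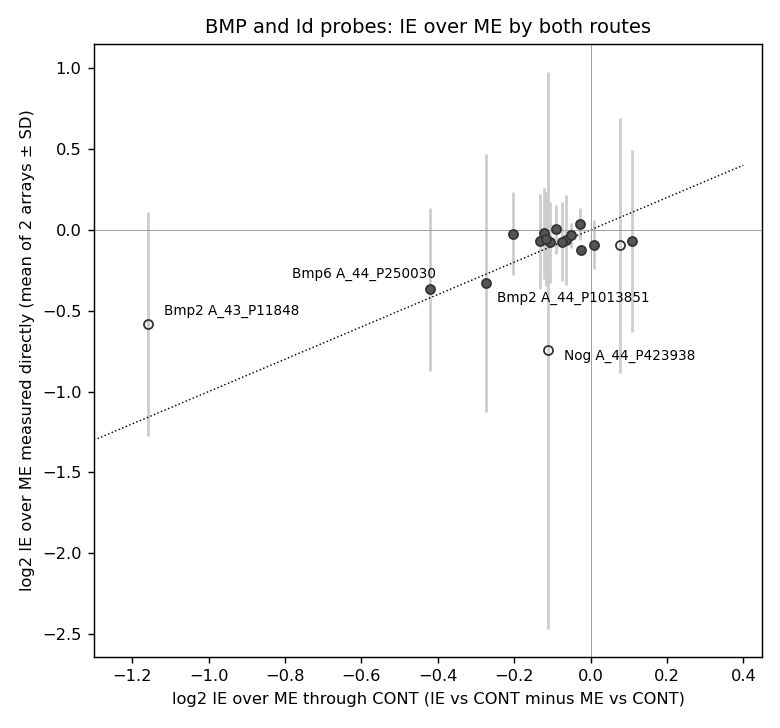
Log2 IE over ME of each member probe measured directly (y axis, mean of 2 arrays ± SD) against the same quantity through CONT (x axis). Filled points are well above background in all readings, open points are not, and the dotted line marks equality. The probes of Bmp2 and Bmp6 lie lowest by both routes together, and Nog A_44_P423938 is low only in the direct measurement, with the longest bar.

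The rest of the pathway was looked at through 5 lists, of which 64 of 90 gene names were on the array, with 82 probes. In each comparison 1 of 82 probes was called, and in each it was Sostdc1, a secreted antagonist of BMP and Wnt signals. Its log2 ratio was 0.79 and 0.59 in ME vs CONT, 3.11 and 2.41 in IE vs CONT, and 2.50 and 1.55 in IE vs ME, higher on every array. Its ME vs CONT call did not hold in the settings that used loess with normexp or without background subtraction, judged on the fold range alone, where its mean fell from 0.69 to 0.26 and 0.34, while its mean in IE vs CONT, 2.76, was 1.77 and 1.76. The medians over all 82 probes were 0.00, -0.01 and 0.03, near those of all probes. By list, the medians lay between -0.04 and 0.01 for the other ligands, -0.03 and 0.01 for the other receptors, 0.03 and 0.09 for the antagonists, -0.05 and 0.03 for the Smads, and -0.02 and 0.04 for the targets and Id partners.

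Sostdc1 is also a marker of choroid plexus, and the choroid plexus list (12 probes of 11 genes, Sostdc1 included) had medians above 0 in the same comparisons. The median of this list was 0.13 in ME vs CONT with 3 probes called higher, 0.52 in IE vs CONT with 4, and 0.40 in IE vs ME with 2. Sostdc1 itself is among the called probes in each comparison, and in ME vs CONT 5 of the 12 probes had opposed arrays. The summed signal of the list, Sostdc1 included, was 743 to 1122 in CONT, 1278 to 1279 in ME and 4056 to 4389 in IE. Of its members, Cldn2 was well above background in 0 of 8 readings of the slide with CONT, Kl in 1 and Slc4a5 in 2. Whether choroid plexus RNA has a part in the Sostdc1 value was not tested.

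Beyond Sostdc1, the widest differences among pathway probes well above background missed the call. With ME, Msx2, a homeobox target of BMPs, gave -0.13 and 0.71, while Twsg1, an extracellular modulator, gave -0.15 and -0.32 and Hey1, a transcriptional repressor downstream of Notch and BMP, gave -0.50 and 0.055. With IE, the probe A_44_P419162 of Smad1, which carries the BMP signal to the nucleus, gave 0.32 and 0.30 (mean 0.31 ± 0.0073, software p of 0.20 and 0.23), but its second probe, A_42_P668072, gave 0.058 and -0.089. The type II receptor Acvr2a gave -0.17 and -0.28 at A_44_P447560 and 0.11 and -0.37 at A_44_P489500, and the ligand Gdf10, with 1 probe, gave -0.075 and -0.42. In IE vs ME, the antagonist Grem1 gave -0.24 and 0.64 at A_44_P550490 and -0.043 and -0.051 at A_44_P256301. The ligand Gdf1 gave -0.27 and -0.0085 at A_44_P262645 and 0.012 and 0.14 at A_44_P429006, and Gdf10 gave 0.012 and -0.26.

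**Figure D5:**
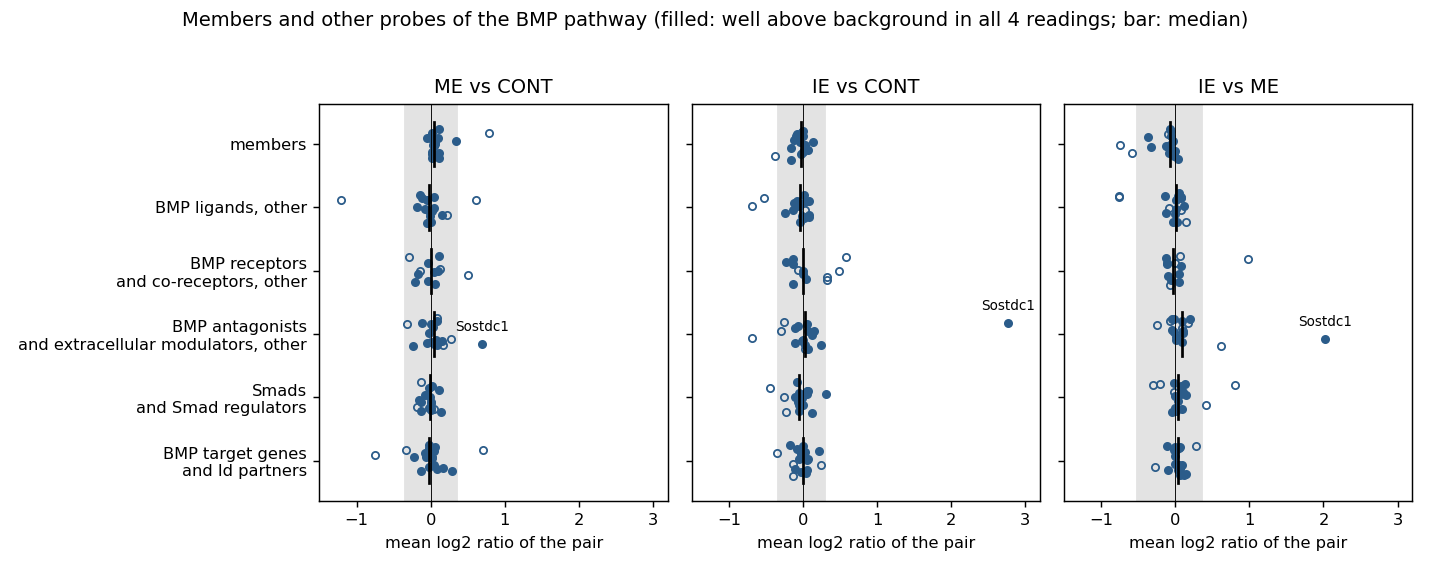
Mean log2 ratio of the pair (x axis) for the members and for the 5 lists of other pathway probes (rows), with 1 panel per comparison. Each point is a probe, filled when all 4 readings are well above background, bars are medians and the gray band holds the middle 90% of all probes. Sostdc1 stands to the right in each panel, and the medians of all lists lie near 0.

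The medians of the endothelium and pericyte (17 probes), astrocyte (14), oligodendrocyte (10), microglia (10) and cerebellum (7) lists lay between -0.09 and 0.06 in all comparisons. Of these, 1 probe was called, that of the cerebellar gene Gabra6, named here after its value was seen. Its log2 ratio was 2.92 and 2.64 in ME vs CONT and -1.72 and -3.22 in IE vs ME, and it was well above background in 2 of the 8 readings of the slide with CONT. The Id genes are expressed by vessel cells and astrocytes as well as by neural progenitors, and their ratios in whole hippocampus are sums over all of these.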

How the data were processed

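Agilent 60-mer 2-colour arrays were scanned and extracted by the authors with Feature Extraction, per the file headers version 9.5.3.1 on the slide with CONT (probe coordinates rn3) and 11.0.1.1 on the slide of IE vs ME. The deposited log10 ratio of Cy5 to Cy3 is background-subtracted and LOWESS dye-normalized. The deposited p-value was derived from that program's error model for the contrast of the pools on 1 array. The deposited signal intensity is on a linear scale, raw and processed, and a value table from the authors gives log10 ratios of processed signals.

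Control features and outlier spots were left out, ratios were turned to log2 with the first-named pool as numerator, and each comparison was counted as 1 replicate, since the methods describe 1 pool per group, although the sample records name a Pool 1 and a Pool 2 for the arrays of a swap. The methods' fold range (1.5 and 0.75) and p threshold (0.01) were applied to each array of a pair. Gene names are those of the array, present in the files of the slide with CONT and carried to the other slide by probe name. Named genes were all 10 members, each pathway probe called in any comparison, and in each comparison the 2 highest and 2 lowest pathway probes well above background. The members and lists were chosen with earlier results of these data known. Alternatives were no p threshold, 1.5-fold on each array, the mean fold of the pair, only probes well above background, normexp (offset 50) with loess in limma 3.58.1 (R 4.3.3), loess without background subtraction (both replace the software's dye normalization too and use the fold range without p), the value table, outlier spots kept, and each array alone. Signal over background stood in for depth: both channels were well above background at 66.5% to 74.4% of the 43379 spots per array, and the number of arrays limits precision.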

Additional observations from a re-analysis of the deposited data

Results flagged for a closer look

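At 4 member probes, both arrays of ME vs CONT lay above 0 and both arrays of IE vs CONT below 0, as at 1.85% of all probes. The opposite pattern was seen at 0 member probes and 2.44% of all probes. These comparisons share the CONT pool, and the difference between them was not tested. At Bmp2 A_43_P11848 the ME vs CONT mean exceeded the IE vs CONT mean by 1.16 on the log2 scale, at a probe that was well above background in 5 of the 8 readings of that slide. The same difference was 0.20 at Bmpr2 A_44_P257640, 0.06 at Bmpr1a A_44_P357470 and 0.05 at Id2 A_43_P11685, each well above background in 8 of 8 readings. After normexp and loess, the ME/CONT and IE/CONT means of Bmp2 A_43_P11848 were 0.03 and -0.08. They were 0.11 and -0.05 after loess without background subtraction. At Bmpr2 A_44_P257640 both means lay below 0 after normexp and loess, -0.02 and -0.09. The other probes of Bmp2, Bmpr2, Bmpr1a and Id2 did not have both ME arrays above 0 and both IE arrays below 0.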

How the results depend on the processing

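No paired analysis was possible because the methods describe 1 pool per group. The sample records name a Pool 1 and a Pool 2 for the arrays of a swap, which was not followed. The count of member probes called was 0 in all comparisons, except for 1 without the p threshold in ME vs CONT, and from 0 to 3 in IE vs ME when either array was used alone. The 3 were lower in IE on array 2, those of Bmp2 A_44_P1013851, Bmp6 and Nog A_44_P423938, where 3175 of all probes passed. The count of pathway probes called was 1 of 82 in each comparison. Without the p threshold it became 2 in each, while 0.987% of all probes passed in ME vs CONT. That share was 0.667% for IE vs CONT. It was 1.06% for IE vs ME. After normexp with loess, or loess without background subtraction, the pathway count in ME vs CONT was 0, the Sostdc1 call being lost. Under these settings, which also drop the p threshold, 14 and 19 of all probes passed there. In ME vs CONT, 2 pathway probes passed on array 1 alone (878 of all 41012 probes) and 3 on array 2 alone (647). The same counts were 3 (758) and 1 (583) when IE was compared with CONT. They were 2 (3226) and 3 (3175) when IE was compared with ME. The member median of ME vs CONT, 0.0514, was 0.0476 over probes well above background, 0.0269 after normexp with loess, 0.0286 without background subtraction and 0.0506 to 0.0544 with either array alone. That of IE vs ME, -0.0717, was -0.0084 and -0.0104 under the same loess settings, and changed sign between the arrays, 0.0025 on array 1 and -0.169 on array 2. No called value reversed. Of 108 values of single member probes under the loess settings, 9 moved by more than the SD between arrays, 4 of them at Bmp2 A_43_P11848 and 5 at Bmp6, Bmp7 and Bmpr2 A_44_P257640. This count leaves out wide shifts at probes with a wide SD. With normexp and loess, IE vs ME went from -0.75 to 0.01 at Nog A_44_P423938 (SD 1.72). It went from -0.58 to -0.03 at Bmp2 A_43_P11848 (SD 0.69) and from -0.33 to 0.01 at Bmp2 A_44_P1013851 (SD 0.80). The cause of these shifts was not tested.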
